A study of Rattus norvegicus with 6 samples.

Results

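REST binding was examined at the microRNA loci of HCN cells, a line of neural stem cells derived from the adult rat hippocampus. A site was taken as a microRNA site when the gene nearest to it, in the annotation that goes with the peak tables, was a microRNA (a name that begins with Mir and a digit, or with Mirlet). This gave 36 of the 1775 sites in quiescent cells and 17 of the 778 sites in proliferating cells. Counted once where the conditions shared a site, there were 37 of 1797 sites, and they lay nearest to 25 microRNAs. The name says which annotated start is closest on the linear genome and nothing about which gene a site acts on.

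The cells were grown in FGF2 alone, which keeps them proliferating as transient-amplifying progenitors (TAP), or in FGF2 with BMP4, which makes them quiescent (iQNP, induced quiescent neural progenitors). In each condition chromatin was immunoprecipitated once with a commercial REST antibody and once with a mix of 2 homemade antibodies, REST14 and REST17, and 1 input library was sequenced. The tables number the peak sets of a condition 1 and 2, and these were taken as antibodies 1 and 2 of the sample titles. The titles give only these numbers. Antibody 1 was assumed to be the commercial one and antibody 2 the homemade mix, and every value given by antibody rests on this. The cells are a line kept in monolayer, and the labels name no genetic change in either condition. Nothing states that the 2 libraries of a condition came from separate cultures, so the spread between them holds the difference between antibodies together with any technical error. The depth of the libraries ran from 25.2 to 29.8, in units of 1000000 tags. Each site in the tables had been called with both antibodies, so a site with no entry in TAP has no TAP value here. The cells' identity could not be checked against marker genes, since ChIP-seq measures binding and not RNA.

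REST, the RE1-silencing transcription factor, is a zinc finger repressor that recruits CoREST, SIN3A and histone deacetylases to neuronal genes in cells that are not neurons. MicroRNAs are cut from hairpins in longer primary transcripts and pair with messenger RNAs through their seed, the bases from 2 to 8 of the mature strand. Several neuronal microRNAs, miR-124, miR-9 and miR-132 among them, are known REST targets, and miR-9 in turn targets the messenger RNA of REST. The annotated start of a microRNA is the start of its hairpin, and the promoter of the primary transcript may lie many kilobases upstream or at the start of a host gene.

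The mature strands of the microRNAs that carry the results are given here, 5′ to 3′ with the seed in capitals, as RefSeq annotates them on GRCr8. The first 3 belong to the loci with a site at the hairpin or a few kilobases from it in both conditions, miR-212 being included because its hairpin lies just upstream of that of miR-132 on the same strand.
rno-miR-132-3p: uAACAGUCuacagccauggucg
rno-miR-212-3p: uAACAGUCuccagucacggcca
rno-miR-137-3p: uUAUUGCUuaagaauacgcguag
The seeds of miR-132 and miR-212 are identical, and the strands differ at 5 of 22 bases.

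The miR-9 strands are shown because 2 of the loci that encode miR-9 had sites, and 1 of them carried another name. The hairpin of Mir3597-1, the microRNA that names 1 site, overlaps that of Mir9-1 by 89 bases on the opposite strand, so the site named for Mir3597-1 is also the site nearest to Mir9-1.
rno-miR-9a-5p: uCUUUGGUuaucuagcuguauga
rno-miR-9a-3p: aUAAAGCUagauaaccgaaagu
rno-miR-9b-5p: uUCGGUUAucuagcuuuau
The strand miR-9b-5p comes from Mir3597-1, and both miR-9a strands are the same from Mir9-1, Mir9-2 and Mir9-3.

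The next strands come from families with more than 1 locus, where the copies held unequal numbers of tags or 1 copy had no site, and from the strongest site and the intronic loci described further on.
rno-miR-129-5p: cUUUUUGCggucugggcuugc
rno-miR-138-5p: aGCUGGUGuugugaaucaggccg
rno-miR-135a-5p: uAUGGCUUuuuauuccuauguga
rno-miR-135b-5p: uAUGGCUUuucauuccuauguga
rno-let-7f-5p: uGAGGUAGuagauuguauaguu
rno-miR-3085: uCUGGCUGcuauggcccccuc
rno-miR-346: uGUCUGCCugagugccugccucu
The strand miR-129-5p is made from both Mir129-1 and Mir129-2, and the strands of miR-135a and miR-135b differ by U11C, counted from the 5′ end with the base of miR-135a first. Mature strands were matched for 20 of the 25 microRNAs. The others were Mir124-1, Mir124-2, Mir124-3, Mir30d and Mir598.

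Most of the microRNA sites were not classed as promoter-TSS and lay upstream of the hairpin. The class is set by annotated starts, so it does not place a site relative to the promoter of a primary transcript. In iQNP, 26 of 36 (72.2%; 95% Wilson interval, 56.0 to 84.2) were intergenic, 8 were in introns, 1 was a promoter-TSS site and 1 lay at a transcript end, the class that HOMER calls TTS. Over all iQNP sites 54.8% were intergenic and 14.8% were promoter-TSS sites. Of the 17 TAP sites, 9 were intergenic, 6 were in introns, 1 was at a promoter-TSS and 1 at a transcript end. Upstream of the annotated start lay 26 of the 36 iQNP sites, against 48.8% of all iQNP sites. The median distance was 29.8 kb, from 0.111 kb at Mir132 to 262 kb at Mir30d, and 34.2 kb over all iQNP sites. A distance of at most 10 kb was found for 12 of 36 sites (33.3%), close to the 34.6% of all sites. These shares are given as a description, and the intervals cover counting error only.

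**Figure D1:**
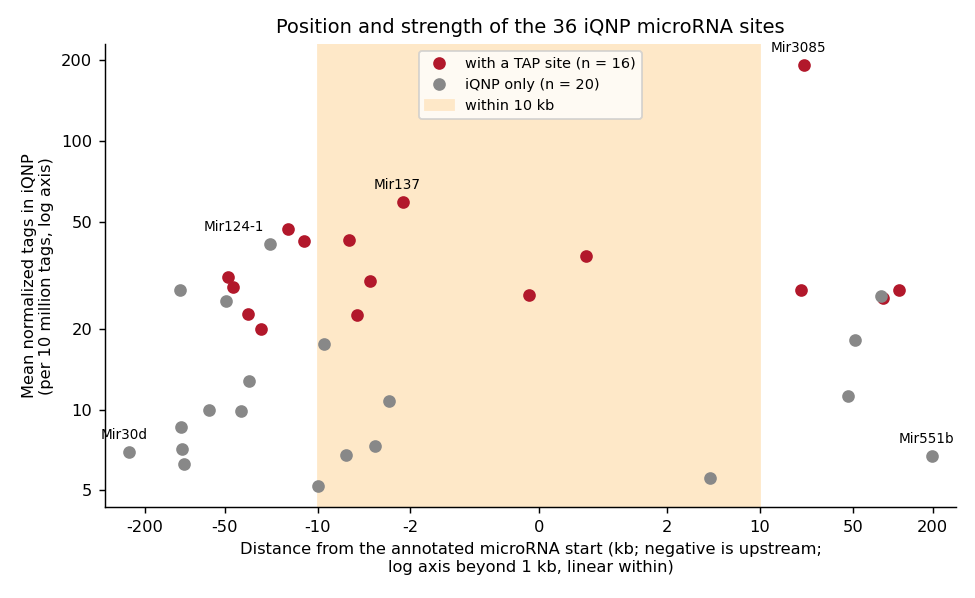
Mean normalized tags in iQNP (log axis, per 10000000 tags) at the 36 iQNP microRNA sites against their distance in kb from the annotated microRNA start, negative being upstream; the distance axis is linear within 1 kb and logarithmic beyond. Red points had a TAP site (n = 16) and grey points did not (n = 20), and the shaded band holds the 12 sites within 10 kb; the highest point is the Mir3085 site at 21.3 kb, and the sites under 10 tags are all grey.

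Binding within 10 kb of the start in both conditions was found at 6 loci, Mir132, Mir137, Mir9-3, Mir3597-1 with Mir9-1, Mir129-2 and Mir124-3. Values are normalized tags, the tags in the peak of a library scaled to 10000000 per library, with the commercial antibody first. The site of Mir132, a microRNA induced by neuronal activity through CREB, was the 1 promoter-TSS site (rn4, chr10:62480587-62480644) and lay 111 bp upstream of the hairpin. It held 34.1 and 19.5 tags in iQNP and 13.6 and 11.1 in TAP. Both iQNP libraries lay above both TAP libraries there, although the antibodies differed more from each other in iQNP than the homemade iQNP library did from the TAP libraries.

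Mir137, whose microRNA acts in neural stem cell differentiation and whose human locus is associated with schizophrenia, had the strongest of the sites within 10 kb (rn4, chr2:214799980-214800032, 2290 bp upstream, intergenic). The tags were 67.8 and 51.4 in iQNP and 31.5 and 31 in TAP. The 2 TAP libraries were nearly alike, and both lay well under the iQNP libraries. The site ranked 80 of 1775 by mean tags in iQNP and 76 of 778 in TAP.

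At Mir9-3, 2 iQNP sites lay upstream and 1 had a TAP partner. The farther and stronger one, 5849 bp upstream in a CpG island (rn4, chr1:135248250-135248318), held 48.6 and 37.3 tags in iQNP and 26.8 and 21 in TAP, so the conditions did not overlap. The nearer one, 2901 bp upstream, held 13.5 and 8.06 tags in iQNP and had no TAP site within 200 bp. At the locus shared by Mir9-1 and Mir3597-1 the site lay 5065 bp upstream of Mir3597-1 (rn4, chr2:180298143-180298200), which is downstream of Mir9-1 because the hairpins are read from opposite strands. It held 25.5 and 19.5 tags in iQNP and 21.4 and 13.9 in TAP. The commercial TAP library lay above the homemade iQNP library there, so this is a site where the conditions overlapped.

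The 2 loci that make miR-129-5p, a brain-expressed microRNA, differed in tags. The Mir129-2 site, 4044 bp upstream (rn4, chr3:78653040-78653102), held 36.9 and 23.2 tags in iQNP and 18.3 and 13.5 in TAP. Mir129-1 had 2 weaker iQNP sites, with 8.51 and 5.04 tags at 6063 bp upstream and 11 and 8.73 tags at 37982 bp upstream, and neither had a TAP partner. All 4 of these values lay under each iQNP value of the Mir129-2 site.

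The 3 loci of miR-124, the most abundant microRNA of neurons, held 6 iQNP sites and 2 TAP sites. Mir124-3 had 3 iQNP sites, and the one 531 bp past the annotated start, at a transcript end (rn4, chr3:170005069-170005134), held 43.3 and 31.6 tags in iQNP and 21 with both antibodies in TAP. The other 2 held 22.7 and 12.4 tags at 8972 bp upstream and 29.4 and 21.2 at 48996 bp upstream, with no TAP partner. The 3 sites of this locus were thus called together in iQNP, and the strongest of them alone in TAP. Mir124-2 had 1 weak iQNP site 3674 bp upstream, with 9.58 and 5.04 tags. Mir124-1 had 2 sites upstream, and here the stronger one was the one with no TAP partner. The site at 22872 bp held 49.3 and 33.6 tags in iQNP, the highest mean of the 20 iQNP sites without a partner, and the nearest TAP site was 24706 bp away. The site at 47568 bp held 34.1 and 28.2 tags in iQNP and 14.4 and 11.9 in TAP.

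The remaining sites within 10 kb were weak and were called in iQNP alone. Mir135b had the lowest mean of all the microRNA sites, with 5.32 and 5.04 tags at 9897 bp upstream. The other gene of this family, Mir135a, had 2 upstream sites in iQNP with 13.8 and 11.8 tags at 32996 bp and 8.16 and 6.04 at 105499 bp, also without a TAP partner. The Mir671 site, 4213 bp past the start, held 6.39 and 4.70 tags and lay in intron 4 of 13 of Smarcd3, a subunit of the BAF chromatin remodelling complex.

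**Figure D2:**
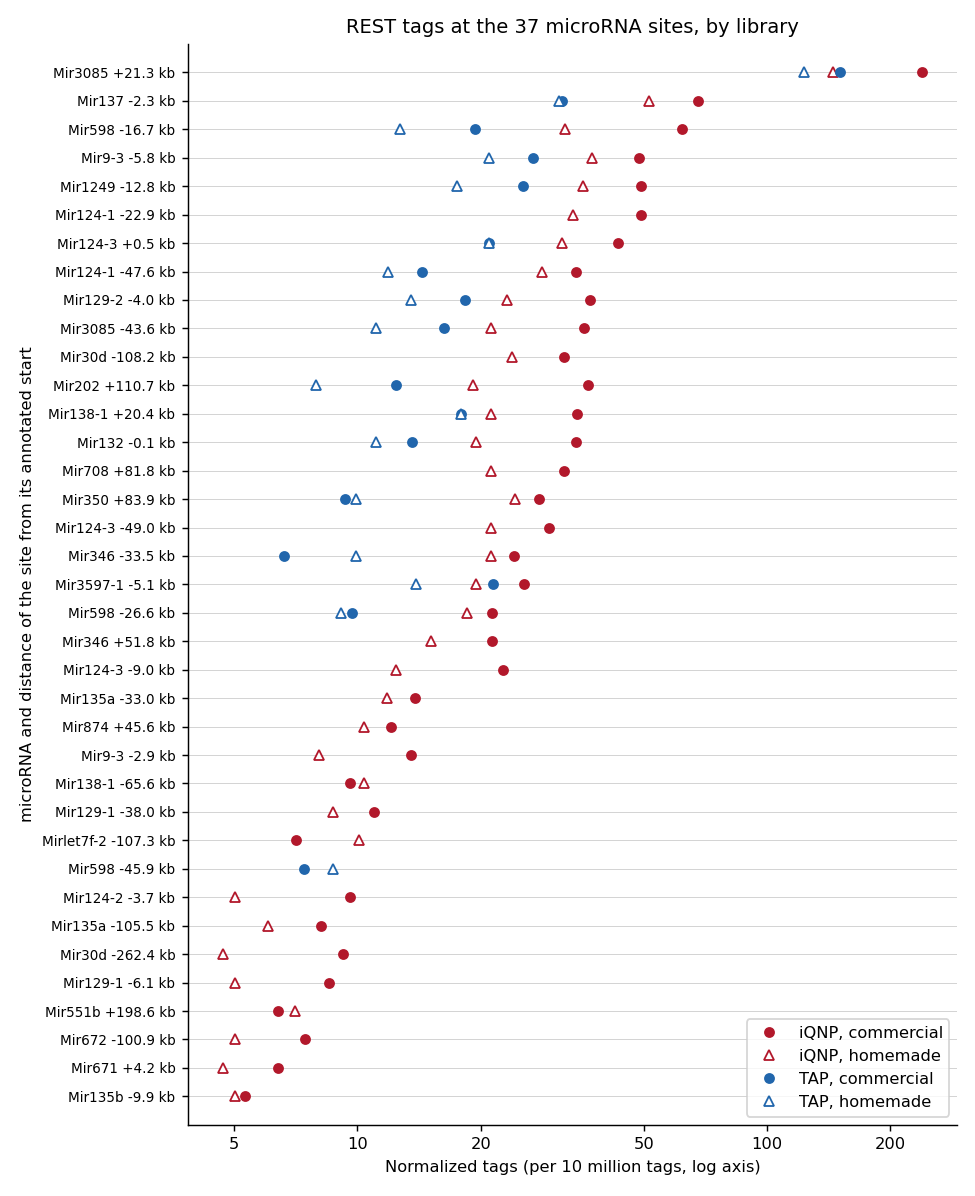
Normalized tags (log axis, per 10000000 tags) of each library at the 37 microRNA sites, named by the microRNA and the distance from its annotated start in kb; red marks iQNP and blue TAP, filled circles the commercial and open triangles the homemade antibodies, and sites are ordered by their mean in iQNP (in TAP for the site called there alone). The Mir3085 site at 21.3 kb stands above the rest in all 4 libraries, and the 11 iQNP sites with the lowest means, all under 10 tags, have no TAP value.

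The other shared sites, 10 in number, lay farther than 10 kb away. The strongest microRNA site of all was 21307 bp past Mir3085, in a CpG island and annotated as intergenic (rn4, chr1:248595848-248595905), with 239.4 and 145.0 tags in iQNP and 150.9 and 123.1 in TAP. It ranked 9 of 1775 sites in iQNP and 7 of 778 in TAP, and the commercial TAP library lay above the homemade iQNP library. A second Mir3085 site, 43612 bp upstream in intron 3 of 14 of Crtac1, which encodes an extracellular matrix protein, held 35.8 and 21.2 tags in iQNP and 16.3 and 11.1 in TAP. In both conditions 2 further sites named for Crtac1 itself lay within 100 kb.

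For 3 microRNAs that lie inside a host gene, the shared sites were in introns of that gene. Mir598 lies inside Xkr6, and 2 shared sites lay upstream in intron 1 of 2. The one at 16696 bp held 62.1 and 32.2 tags in iQNP against 19.4 and 12.7 in TAP, and the one at 26608 bp held 21.3 and 18.5 against 9.72 and 9.13. Mir346 lies inside Grid1, which encodes the delta 1 subunit of the ionotropic glutamate receptor family. Its shared site, 33452 bp upstream in intron 2 of 12, held 24.1 and 21.2 tags in iQNP and 6.61 and 9.93 in TAP, and a second site 51821 bp past the start, in intron 3, held 21.3 and 15.1 in iQNP alone. The Mir1249 site, 12755 bp upstream in intron 1 of 9 of Kiaa0930, held 49.3 and 35.6 tags in iQNP and 25.3 and 17.5 in TAP. At each of these shared sites both TAP libraries lay under both iQNP libraries.

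The last 3 shared sites were intergenic. Mir138-1 makes miR-138-5p, which limits the size of dendritic spines. Its shared site, 20409 bp past the start, held 34.4 and 21.2 tags in iQNP and 17.9 with both antibodies in TAP, and a weaker site 65593 bp upstream held 9.58 and 10.4 in iQNP alone. Mir350 lies inside Cep170, and its site, 83882 bp past the start, held 27.7 and 24.2 tags in iQNP and 9.33 and 9.93 in TAP. The Mir202 site, 110740 bp past the start, held 36.5 and 19.1 tags in iQNP and 12.4 and 7.94 in TAP. The conditions did not overlap at any of these 3 sites.

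A single microRNA site was called in TAP alone. It was the third site of Mir598, 45881 bp upstream and again in intron 1 of Xkr6, with 7.39 and 8.74 tags, or 19 and 22 reads counted, and a fold over input of 10.5 and 12.4. The nearest iQNP site was 19273 bp away. It had the lowest mean of the 17 TAP sites, 8.07 tags, where the shared sites ran from 8.27 to 137.0.

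Apart from those described, the iQNP sites without a TAP partner were those of Mir708, Mir30d, Mir874, Mir551b, Mir672 and let-7f-2. The first site of Mir30d, 108217 bp upstream, held 31.9 and 23.8 tags, and the Mir708 site, 81774 bp past the start of a microRNA inside Tenm4, held 31.9 and 21.2. The others had means of at most 11.3 tags. The let-7f-2 site lay 107253 bp upstream of its hairpin, in a CpG island, with 7.09 and 10.1 tags, and was 1 of 3 iQNP sites with more homemade than commercial tags. The farthest, 262399 bp upstream of Mir30d, held 9.22 and 4.70 tags.

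Whether a microRNA site had a TAP partner went with its tags in iQNP. A TAP site with its centre within 50 bp was found for 16 of the 36 iQNP microRNA sites (44.4%; 95% Wilson interval, 29.5 to 60.4), beside 42.6% of all 1775. Of the 17 TAP sites, 16 had an iQNP partner (94.1%), beside 97.2% of all. The 16 shared sites had a median of 29.3 normalized tags in iQNP and a lowest value of 19.9, so that all of them lay above the median of all iQNP sites, 17.9. The 20 without a partner had a median of 9.93 and a highest value of 41.5, and 5 of them lay above it. With under 10 tags, 0 of 11 microRNA sites had a partner (upper Wilson bound, 25.9%), beside 1.20% of all sites in that range. The counts were 1 of 6 from 10 to 20 tags, 7 of 10 from 20 to 30, and 8 of 9 from 30 tags on, beside 26.3%, 67.4% and 85.2% of all sites, and each of these last 3 values lay inside the interval of the microRNA sites. Within 10 kb 6 of 12 sites had a partner and beyond it 10 of 24, with intervals that overlapped (25.4 to 74.6% and 24.5 to 61.2%). By microRNA, 14 of the 25 had a TAP site and 11 had sites in iQNP alone.

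**Figure D3:**
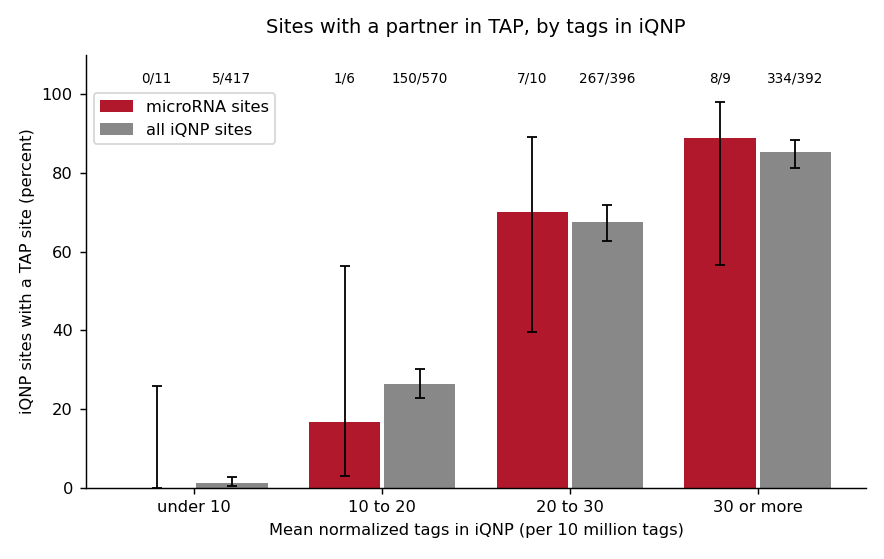
Percent of iQNP sites with a partner in TAP, centre within 50 bp, by mean normalized tags in iQNP, for the microRNA sites (red) and all iQNP sites (grey); bars show the share, error bars its 95% Wilson interval, and the counts stand above. Both sets of bars rise from the lowest class, with 0 of 11 microRNA sites, to the highest, with 8 of 9.

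The microRNA sites had higher median tags than all sites in both conditions. Their median was 22.6 normalized tags in iQNP and 15.9 in TAP, where all sites had 17.9 and 12.6. Above the median of all sites lay 21 of 36 in iQNP and 11 of 17 in TAP. The Wilson intervals of these shares were 42.2 to 72.9% and 41.3 to 82.7%. Both intervals include an even split, so the counts do not bear out a difference from all sites. In iQNP the fold over input did not share the order of the median tags. Its medians at the iQNP microRNA sites were 20.3 (commercial) and 13.8 (homemade), where all sites had 21.9 and 18.0. In TAP the fold over input did share that order, with medians of 20.3 and 16.6 beside 17.1 and 15.3. The weakest of the iQNP microRNA sites rested on 15 and 14 reads counted.

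At the 16 shared microRNA sites, the median difference in normalized tags, iQNP minus TAP on the log2 scale, was 1.02, made up of 1.12 for the commercial and 0.88 for the homemade antibodies. All 756 shared sites had a median of 1.05, with 1.16 and 0.92. All 16 were higher in iQNP with both antibodies on this scale, as were 98.5% of all shared sites. TMM scaling centres the shared sites by construction and moved the median log2 fold of all of them to −0.01. Under it 9 of the 16 changed sign. In normalized tags, both iQNP libraries lay above both TAP libraries at 14 of 16, beside 92.7% of all. The 2 that overlapped were the strong Mir3085 site and the site of Mir3597-1 and Mir9-1. Tags come from a population of cells, so fewer cells with REST at a site and less REST per cell cannot be told apart.

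By edgeR's quasi-likelihood test on the reads counted, with depth as the library size and Benjamini-Hochberg adjustment over all 756 shared sites, 10 of the 16 microRNA sites passed an adjusted p of 0.05 with the higher level in iQNP, beside 68.4% of all shared sites. With the higher level in TAP, 0 passed, and 0 had an unadjusted p under 0.05, also by DESeq2 with the same depths. DESeq2 called 13 of the 16 higher in iQNP, beside 513 of all 756 shared sites. The fitted log2 fold was 1.55 at the nearer Mir598 site (adjusted p = 0.00203), 1.45 at Mir346 (0.00195), 1.44 at Mir202 (0.00195) and 1.42 at Mir350 (0.00209). It was 1.24 at Mir124-1 (0.00689), 1.11 at Mir132 (0.0118) and 0.91 at Mir129-2 (0.0364), and the farther Mir598 site, the upstream Mir3085 site and Mir1249 also passed (adjusted p from 0.0139 to 0.0323). The sites that did not pass were Mir137 (log2 fold 0.93, adjusted p = 0.0515), Mir9-3 (0.84, 0.0642), Mir124-3 (0.83, 0.0633), Mir138-1 (0.64, 0.124), the strong Mir3085 site (0.49, 0.360) and Mir3597-1 (0.35, 0.378). This split comes from a fit without an antibody term and changed when that term was added, as given at the end. The count rests on single libraries, and neither it nor the count over all shared sites held when either TAP library was left out. Without the commercial iQNP library the median fitted log2 fold of the 16 sites was 0.68, beside 0.79 over all shared sites. Without the homemade iQNP library it was 1.21, beside 1.26. The values were 1.17 and 0.88 without the commercial and the homemade TAP library, beside 1.18 and 0.95. The count also rests on the scaling. With TMM normalization over the shared sites, which moved the median of all of them from 1.05 to −0.01, 0 microRNA sites were called higher in iQNP (1 at an unadjusted p under 0.05) and 2 higher in TAP, namely the strong Mir3085 site (log2 fold −0.59, adjusted p = 0.00539) and Mir3597-1 (−0.71, 0.0147), and over all shared sites 39 and 51. The files hold no spike-in or other outside standard that would set the scale between conditions.

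**Figure D4:**
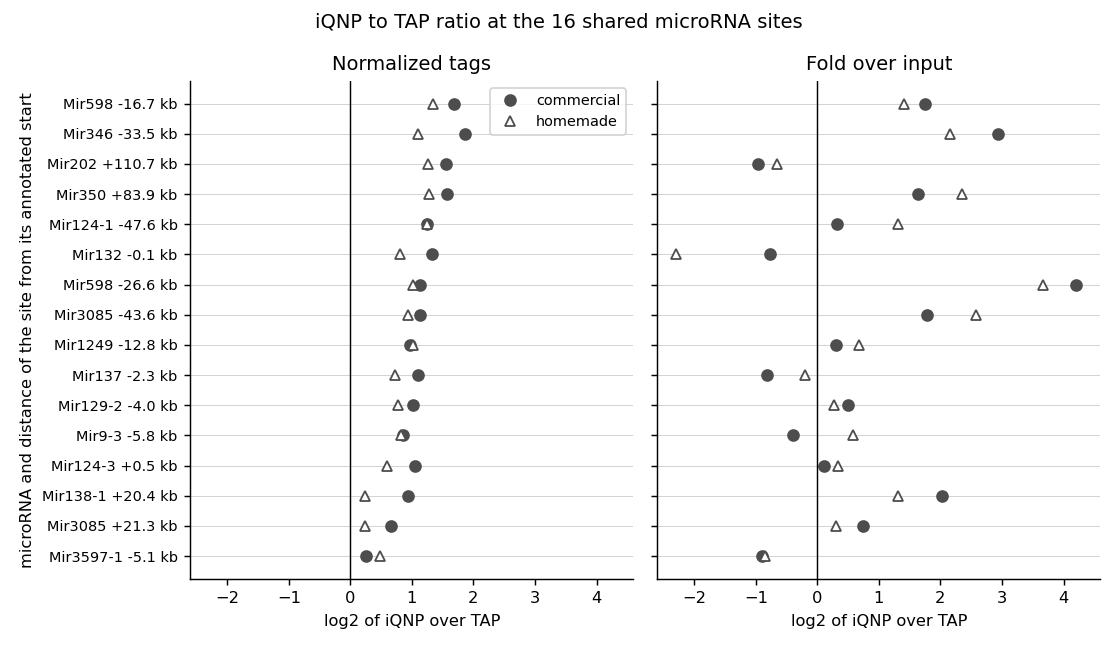
The log2 ratio of iQNP to TAP at the 16 shared microRNA sites, in normalized tags (left) and in fold over input (right), with 1 filled circle for the commercial and 1 open triangle for the homemade antibodies at each site; the vertical line marks 0. In tags scaled by depth all points lie to the right of 0, between 0.24 and 1.87 (9 of the 16 sites changed sign under TMM scaling, which centres the shared sites by construction). In fold over input they run from −2.29 to 4.20, with Mir202, Mir132, Mir137 and Mir3597-1 to the left of 0 with both antibodies. The place of Mir202, the value of 4.20 and the ratios of Mir346 (both antibodies) and Mir350 (homemade) rest on scaled inputs of 0.5 tags or less. The value of −2.29 rests on a TAP input of 0.9 tags.

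The fold over input put these sites in another order. Its median log2 ratio between the conditions, iQNP over TAP, was 0.41 (commercial) and 0.63 (homemade), where all shared sites had 0.98 and 0.73. The fold over input was lower in iQNP with both antibodies at 4 of 16 sites, beside 20.5% of all shared sites, higher with both at 11, and split at Mir9-3. Mir132 had folds of 11.3 and 6.46 in iQNP against 19.3 and 31.6 in TAP, and the input tags scaled to the library were 8.5 and 9.0 in iQNP and 1.8 and 0.9 in TAP. The folds of Mir137 were 50.8 and 38.3 in iQNP against 89.5 and 44.0 in TAP, with input of 3.8 and 4.0 against 0.9 and 1.8 tags. Mir3597-1 had 10.9 and 7.27 in iQNP against 20.3 and 13.2 in TAP. Mir202 had 36.4 and 28.6 against 70.7 and 45.1, with input of 2.8 and 2.0 against 0.5 and 0.4 tags. All 4 of these sites had more scaled input tags in iQNP than in TAP, and the part of the input in their order was not tested. The reverse was seen at the Mir598 site at 26608 bp, with a fold of 127.1 and 110.3 in iQNP against 6.91 and 8.65 in TAP. The input there was 0.5 tags in iQNP and 3.6 and 2.7 in TAP. Scaled inputs of 0.4 and 0.5 were the lowest at the microRNA sites, the next value being 0.9, so folds over them are poorly set. The order of Mir202 and the size of the Mir598 ratio rest on such inputs. So do the log2 ratios of the shared Mir346 site (2.94 and 2.16) and, with the homemade antibody, of Mir350 (2.36). The lowest log2 ratio, −2.29 at Mir132 with the homemade antibody, rests on a TAP input of 0.9 tags. Both antibodies of a condition were set against the same input library, so their input values are not independent. The scaled input was higher in iQNP at 11 of 16 microRNA sites for both antibodies, beside 58.6% of all shared sites. The fold over the local background, which HOMER takes from the ChIP library around the peak, was higher in iQNP with both antibodies at 15 of 16 sites, beside 97.0% of all, with a median log2 ratio of 0.91, beside 0.96. The exception was Mir138-1, with 38.8 and 25.6 in iQNP and 23.4 and 26.6 in TAP.

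The commercial antibody gave more tags than the homemade mix at most microRNA sites. It did so at 33 of 36 sites in iQNP, with a median log2 ratio of 0.46, and at 12 of 17 in TAP, with 0.29. All sites had medians of 0.40 and 0.25, with 83.3% and 73.4% higher with the commercial antibody. The 3 exceptions in iQNP were Mir138-1 at 65593 bp upstream, Mir551b and let-7f-2, each with a mean under 10 tags.

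Of 29 names listed as neuronal microRNAs, 15 (51.7%) were the nearest gene of an iQNP site and 9 of a TAP site. Of the 466 microRNA genes that RefSeq lists on GRCr8, 5.36% and 3.00% were. The list was chosen with these results known, so the difference is a description. The 9 were Mir124-1, Mir124-3, Mir9-3, Mir132, Mir137, Mir129-2, Mir138-1, Mir346 and Mir598, and with Mir3597-1, whose site is also the nearest to Mir9-1, the locus count would be 10 in TAP. In the genes of the microRNA machinery, from Drosha and Dicer1 to the Argonaute and Lin28 genes, 1 of 20 names (some Argonaute genes are listed under an older name too) had a site in each condition, beside 5.75% of all protein-coding genes in iQNP and 2.73% in TAP. This was Lin28a, which blocks the maturation of let-7, with an intergenic site about 2 kb upstream (rn4, chr5:152768293-152768361). It held 123.4 and 63.1 tags in iQNP and 71.6 and 50.8 in TAP, and 98.0% and 97.2% of all sites lay under it by mean tags. Among 16 names of the REST complex and its known microRNA partners, including Rest, Rcor1, Ctdsp1 and Ptbp1, 0 were the nearest gene of a site in either condition. Beside the 5.75% and 2.73% of all protein-coding genes, a count of 0 among so few names says little. In RefSeq on GRCr8, 11 of the 25 microRNAs lie inside a protein-coding gene and 10 inside a gene for a long non-coding RNA.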

How the data were processed

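REST ChIP-seq of HCN cells was analysed with 1 library per antibody and condition (4 ChIP libraries) and 1 input per condition. The authors aligned single-end reads to rn4 with Bowtie2, called peaks with HOMER for each antibody against the input at a p-value of at most 1e-04, and kept the peaks of both antibodies after merging within 50 bp. Versions are not given in the sources used here. No listed site had a fold over input under 4.01. The deposited tables give total tags as counts, normalized tags as signal per 10000000 tags, input tags as signal scaled to the ChIP library, the fold over input and over local background as ratios, and a p-value against input. Input values are small at most sites, so the ratios move with few reads.

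The nearest gene, class and distance came from the authors' annotation of the same sites, which repeats 1 site in each condition (dropped). The ratio of total to normalized tags gave each library's depth. The fewest reads at an iQNP microRNA site were 15 (commercial) and 14 (homemade). Sites were paired one to one, closest centres first, within 50 bp. The 756 shared sites were tested with edgeR 4.0.16 (R 4.3.3), condition being the only term, and the alternatives were DESeq2 1.42.0, TMM, the antibody as a block, stricter peak limits, fold over input, and leaving out each library. With 2 libraries against 2, an exact two-sided permutation cannot go under 1 in 3. Shares have 95% Wilson intervals (Python 3.11.15). Values per library are given for sites within 10 kb of the annotated start, shared sites and those called in TAP alone. The members and lists were chosen with earlier results of these data known. Sequences are RefSeq's (GRCr8), matched by gene ID; no rn4 sequence was used here, so motifs at the sites were not analysed here.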

Additional observations from a re-analysis of the deposited data

How the results depend on the processing

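With a p-value of at most 1e-10 or a fold over input of at least 8, the counts of microRNA sites and of shared sites stayed within 1.5 times (27 to 36 in iQNP, 15 to 17 in TAP, 12 to 16 shared). Limited to 10 kb from the annotated start, which leaves fewer sites by construction, they were 12, 6 and 6. At shared sites the median iQNP to TAP log2 ratio, 1.02, was 0.51 on fold over input and −0.036 after TMM, and ran from 0.88 to 1.12 with either antibody alone. On fold over local background, an alternative chosen after seeing the data, it was 0.91. The count of 10 sites with more tags in iQNP was 0 with TMM and with DESeq2's own size factors. Those factors gave 4 of the 16 no adjusted p, 1 a call higher in TAP, and 0 an unadjusted p under 0.05 higher in iQNP. Over all 756 shared sites the same counts were 308, 3 and 34, with 3 called higher in iQNP. With DESeq2 and the depths the count was 13, beside 513 of all 756 shared sites. Neither the count of microRNA sites nor that of all shared sites held when either TAP library was left out. With 1 library left in a condition, that library is assumed to vary like the other condition's, so only fitted folds are given for those fits. TMM and DESeq2's own factors set the typical shared site to no change by construction. They turned the sign at the same 9 sites, to −0.014 and −0.017 at Mir3085 upstream, −0.070 and −0.062 at Mir1249, −0.12 and −0.12 at Mir137, −0.15 and −0.15 at Mir129-2, −0.21 and −0.21 at Mir9-3, −0.23 and −0.23 at Mir124-3, −0.42 and −0.43 at Mir138-1, −0.59 and −0.59 at the strong Mir3085 site, and −0.71 and −0.69 at Mir3597-1.

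The replicate number stands for the antibody. Deviations of the same antibody from the condition means had a correlation of 0.0443 over the shared sites. A correlation leaves out an offset between antibodies that is common to all sites. Such an offset was seen, with more commercial tags at 83.3% of all iQNP and 73.4% of all TAP sites. The main test had no antibody term, so the offset stayed in its error. With the antibody as a replicate block, 14 of 16 microRNA sites and 717 of 756 shared sites were called higher in iQNP, and 0 higher in TAP. The 4 microRNA sites gained were Mir137 (edgeR adjusted p = 7.8e-07), Mir9-3 (3.7e-05), Mir124-3 (0.00013) and Mir138-1 (0.0074).

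Sites under 10 tags rest on few reads, a site with no entry in TAP was not measured there, and the part of depth in missing TAP calls was not tested.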
